A study of Mus musculus with 18 samples.

Results

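The transcripts of 59 genes named after parts of the cilium were followed in mouse hippocampus, out of 11738 gene symbols listed in 3 deposited tables. Members were chosen by symbol alone. They were the genes whose symbol starts with Ift, Bbs, Ttc, Spag or Tekt followed by a digit, and those starting with Dnah, which in these older tables includes the spelling Dnahc for axonemal dynein heavy chains. By textbook role, 11 members encode subunits of the intraflagellar transport complex B (IFT-B), 3 of complex A (IFT-A) and 9 of the BBSome or its chaperonin, and these 23 are called the intraflagellar and BBS genes. A further 9 encode parts or assembly factors of the motile axoneme. The other 27 are Ttc and Spag genes that share the prefix, and for most of them no place in a cilium is textbook knowledge. They are described apart.

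RNA came from hippocampi of C57BL/6 mice, and 3 genotypes were each set against nontransgenic controls of their own. In CaMKII-Cre::miR-132/212f/f mice, which the labels also name miR132/212 cKO and which are called the deletion here, Cre from a CaMKII promoter removes the microRNA genes, and that promoter is known to be active in excitatory forebrain neurons. In tTA::miR132 and tTA::miR212 mice a tetracycline transactivator drives a transgene for the named microRNA. Neither the promoter of the transactivator nor the age of the animals is stated in the labels. The nontransgenic controls lack Cre or the transactivator as well, so what a driver does and what the change in microRNA does cannot be told apart. The study design pooled cDNA of 6 animals into 3 replicates per group.

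The primary cilium is a single immotile antenna that most neurons and astrocytes carry, and it concentrates signalling receptors. IFT-B moves cargo from the base to the tip, IFT-A moves it back, and the BBSome carries membrane receptors such as those for somatostatin along the same track. Motile cilia, which beat and are found in the brain on ependymal cells that line the ventricles, use the same transport machinery and add dynein arms and a central pair of microtubules.

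Both microRNAs read the same seed, which is why one target site serves for all 3 genotypes. Mature sequences are from RefSeq (build GRCm38.p6), with the seed, bases 2 to 8, in capitals.
miR-132-3p: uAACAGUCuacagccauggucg
miR-212-3p: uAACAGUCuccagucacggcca

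The match to that seed, GACTGTT, was searched on the transcribed strand of the longest annotated 3′ UTR of each gene (GENCODE M1, build NCBIM37). It was present in 9 of 58 members with an annotated 3′ UTR, or 15.5%, and in 1449 of 11022 genes of both RefSeq tables, or 13.1%. The median length of these 3′ UTRs was 779.5 bases for members and 1281 for all genes, and the shares were not adjusted for length. In 4 of the 9 the match was followed by an A, the form called 8mer, and these sites are printed 5′ to 3′ with the match in capitals.
Ift81: attgtcctgagGACTGTTattataaata
Ttc26: tcattgccaatGACTGTTacaagatggg
Ttc14: gaagtaattgaGACTGTTattatgtctg
Ttc7: ccctgagcgagGACTGTTactggagccc
The other 5 were Ift80, Ift122, Bbs5, Dnahc1 and Ttc39b. A sequence match alone does not show that a message is bound.

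Regulatory Factor X proteins, the best known activators of cilium genes, bind an element of paired arms called the X-box. One arm, GTTGCC, was searched on both strands from 250 bases before to 50 bases after each start site in build mm9, with start sites from the deposited tables. It was found in 7 of 11 IFT-B promoters (63.6%), 1 of 3 IFT-A, 3 of 9 BBS and 3 of 9 motile axoneme promoters. None of the 27 other Ttc and Spag promoters held it, against 1377 of 11349 promoters of all genes (12.1%). The palindromic X-box consensus was searched only in a form with fixed bases between its arms, which was in no member promoter and in 42 of all (0.370%). Paired arms with other bases or another spacing between them were not counted, so this does not show that members lack them. In the windows of Ift57, Ttc26 and Bbs7 printed here, the opposite arm follows the capitals closely, with other bases between. The windows printed here are read on the gene's strand and lie wholly before the start site. They show the arm GTTGCC in capitals for 3 IFT-B genes, a BBSome gene and a motile axoneme gene.
Ift57, chr16:49699330-49699369, plus strand: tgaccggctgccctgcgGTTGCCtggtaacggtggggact
Ift80, chr3:68808549-68808588, minus strand: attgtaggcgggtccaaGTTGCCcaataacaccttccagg
Ttc26, chr6:38331474-38331513, plus strand: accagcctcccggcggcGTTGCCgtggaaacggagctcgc
Bbs7, chr3:36512410-36512449, minus strand: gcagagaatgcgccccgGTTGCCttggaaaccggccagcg
Spag1, chr15:36109232-36109271, plus strand: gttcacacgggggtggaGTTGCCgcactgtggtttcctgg
The members were therefore divided in their promoter letters by role, IFT-B genes most often holding the arm. These are counts of letters, not of bound sites, and no binding was measured.

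For the deletion 51 members were listed among 10541 genes, and for tTA::miR132 there were 57 among 10799, with 2 libraries per group in each. The tTA::miR212 table, with 3 libraries per group, listed 10 members among 4618 gene symbols. All of these members passed the filter on low counts. Levels are given as CPM, a gene's count after scaling the library's total in its table to 1000000 counts, and those totals were 8190899 to 14772907 in the RefSeq tables and 1299369 to 1544923 in the tTA::miR212 table with 1 transcript per gene. Libraries are numbered as in the column names and are tied to a group, not to a lettered sample. No table has a row for Mir132 or Mir212, so the genotypes could not be checked on them. Camk2a, a marker of excitatory neurons, stood at 1345 to 1729 CPM in the deletion table, as the labelled tissue would have it. Of the 7 such markers, 1 had a library at 0 in that table. It was Prox1, at 18.0 and 29.7 CPM in controls, 0 in deletion library 1 and 52.6 CPM in library 2.

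Deletion library 1 stood apart before any comparison was made. In it 1047 genes, or 9.93%, were at 0, against 73 to 120 in the other 3 libraries of its table. Of genes at 20 to 40 CPM on average over the other libraries, 9.62% were at 0 in it. The deletion libraries differed from each other by over 2-fold for 14 of 22 intraflagellar and BBS genes, and control libraries for 2 of 22. Over all genes the shares were 46.9% and 13.3%. Control library 2 of tTA::miR132 had the most genes at 0 in its table, 485, and the controls differed by over 2-fold for 8 of 22 of these genes and 36.0% of all genes. A count of 0 allows up to 3 counts, or 0.319 CPM in deletion library 1, and such limits cover counting error only.

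No member was called in the deletion by edgeR's quasi-likelihood test at an adjusted p under 0.05, and neither was any gene of that table (0 of 10487, 0.0%). At an unadjusted p under 0.05 there were 0 members and 88 genes (0.839%). DESeq2 called 0 members and 5 genes (0.0477%), and limma-voom 0 members and 1 gene (0.00954%). As a description, 10 of 51 members had both deletion libraries above both controls, where 14.3% of all genes tested did, and 5 had both below, where 18.0% did. The log2 fold change was above 0 for 24 members and below for 27, beside 47.9% of all genes above, and its median was -0.07 for members and -0.03 for all genes. With deletion library 2 alone against the controls, 19 members lay above and 13 below both, beside 35.3% and 33.0% of all genes.

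The intraflagellar and BBS genes had overlapping groups for 16 of 22 in the deletion. In 5 both deletion libraries were above both controls, beside 14.3% of all genes, and in 1 both were below, beside 18.0%. Their summed level was 911 and 885 CPM in controls and 1072 and 916 CPM in the deletion, the high value being that of library 1. Of the 22 listed, 11 had a fold change above 0 and 11 below, with a median of -0.01 on the log2 scale. The authors' deposited table has a q under 0.05 for 14 of these 22 genes and for 29 of all 51 members (56.9%), and for 54.3% of all its genes.

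**Figure D1:**
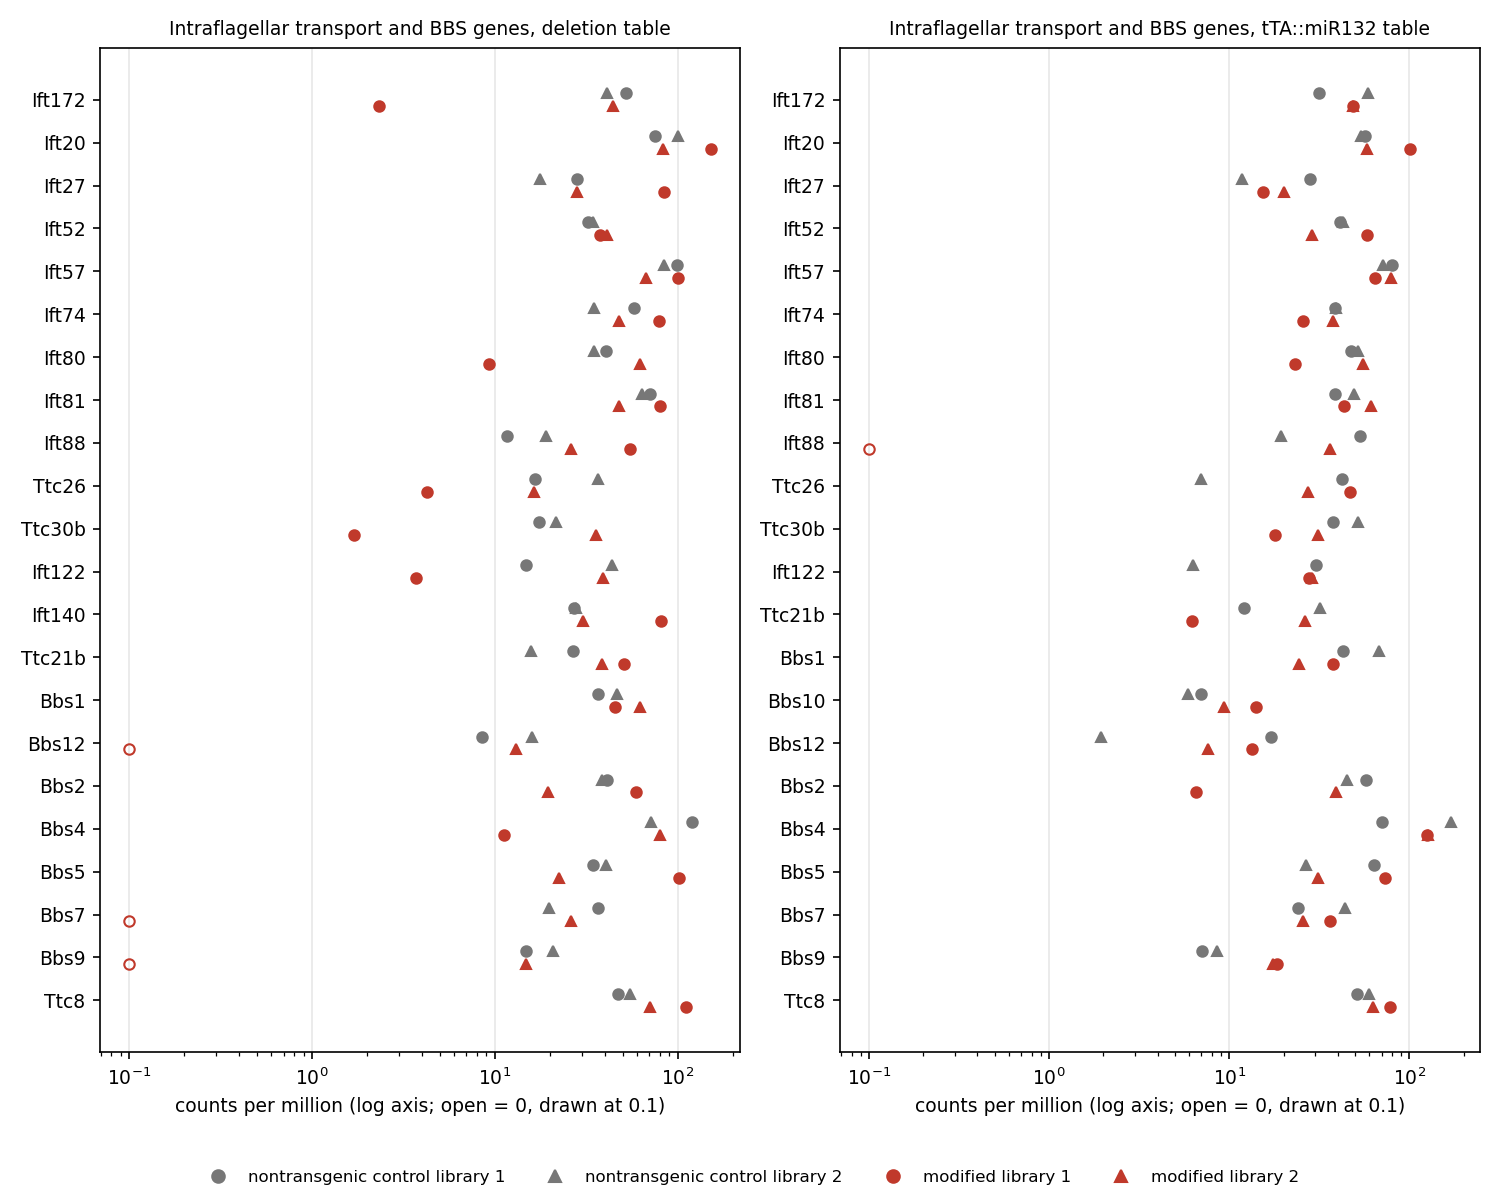
Level in CPM (log axis) of each intraflagellar transport and BBS gene in the 4 libraries of the deletion table (left) and of the tTA::miR132 table (right), grey for nontransgenic controls, red for the deletion or tTA::miR132, circles for library 1 and triangles for library 2. Open symbols are counts of 0 drawn at 0.1, and deletion library 1 is far from library 2 for 14 of 22 genes.

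Among IFT-B genes, 5 of 11 had a fold change above 0 in the deletion. Ift88, a core subunit without which cilia are not built, was at 11.7 and 19.0 CPM in controls and at 55.1 and 26.2 CPM in the deletion. Both deletion libraries were above both controls, library 1 by far, and the log2 fold change was 1.44 (SE 0.77, adjusted p = 0.999 by edgeR's quasi-likelihood test). Ift52, another core subunit, was also higher in both, by a narrow margin, at 32.4 and 34.4 CPM in controls and 37.5 and 41.1 CPM in the deletion. Ift27, a small GTPase that ties the BBSome to the train, was at 28.2 and 17.7 CPM in controls and at 84.4 and 28.0 CPM in the deletion, where library 2 lay within the range of the controls.

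For other IFT-B genes the deletion libraries lay far apart. Ift172, the largest peripheral subunit, was at 52.4 and 40.9 CPM in controls, 2.34 CPM in deletion library 1 and 44.1 CPM in library 2. Ift80 was at 40.5 and 34.9 CPM in controls, then 9.25 and 61.9 CPM, 1 library below both controls and 1 above. Ttc30b, whose near-identical gene copies make its counts uncertain, was at 17.4 and 21.7 CPM in controls and at 1.70 and 35.8 CPM in the deletion.

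Ttc26, an IFT-B subunit that carries one of the 8mer seed sites printed earlier, was the only intraflagellar member, of those chosen by symbol, with both deletion libraries below the controls. It was at 16.5 and 36.7 CPM in controls and at 4.25 and 16.4 CPM in the deletion, a log2 fold change of -1.37 (SE 1.15). Library 2 lay just under the lower control. Ift81, which binds tubulin together with Ift74 and carries an 8mer site, was at 70.4 and 63.9 CPM in controls and at 80.1 and 48.0 CPM in the deletion, 1 library on either side of the controls. Ift74 itself was at 57.5 and 34.8 CPM in controls and 79.5 and 47.9 CPM in the deletion, with overlapping groups. Ift57 was at 99.4 and 84.5 CPM, then 100.3 and 66.8 CPM, and Ift20, which sorts cargo at the Golgi, was at 75.7 and 100.1 CPM, then 151.9 and 83.2 CPM.

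Both IFT-A genes that sat above their controls did so in each deletion library. Ift140, a scaffold of the retrograde complex, was at 27.1 and 27.8 CPM in controls and 81.5 and 30.3 CPM in the deletion, so library 2 was close to the controls. Ttc21b, a subunit of the same complex known for restraining Hedgehog signalling, was at 26.9 and 15.7 CPM in controls and 50.7 and 38.8 CPM in the deletion, with a log2 fold change of 1.10 (SE 0.63). The third, Ift122, was at 14.8 and 43.7 CPM in controls and 3.72 and 38.9 CPM in the deletion and so overlapped.

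Of the 8 BBS genes listed for the deletion, 4 were above 0 and 4 below. Ttc8, a BBSome subunit, had the smallest p of all members here, with 47.5 and 54.7 CPM in controls and 111.3 and 70.6 CPM in the deletion (log2 fold change 0.86, SE 0.43, adjusted p = 0.999, edgeR). Both deletion libraries were above both controls. Bbs5, which binds membrane lipids, was at 34.7 and 40.8 CPM in controls and at 102.3 and 22.6 CPM in the deletion, and Bbs4 was at 120.2 and 71.9 CPM and then at 11.3 and 80.2 CPM. These subunits of one complex thus differed in opposite directions within deletion library 1. Bbs7, Bbs9 and Bbs12 were at 0 there, while library 2 held 26.2, 14.7 and 13.1 CPM and the controls held 8.48 to 36.8 CPM. Bbs1 and Bbs2 overlapped their controls, at 36.7 to 62.1 CPM and at 19.6 to 58.9 CPM over the 4 libraries.

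As a group the motile axoneme genes had the lowest median level per length of the roles in the RefSeq tables. Per kilobase of annotated exons, their median control level was 0.846 CPM in the deletion table, from 0.253 for Dnahc6 to 5.24 for Spag1, against 3.63 for IFT-A, 11.9 for IFT-B and 9.97 for BBS genes. The IFT-A range, 2.29 to 3.68, lies below the value of Spag1. In the tTA::miR132 table the per-kilobase medians were 1.12 CPM for motile axoneme genes, 2.33 for IFT-A, 14.6 for IFT-B and 9.93 for BBS genes, and single libraries reached 10.6 CPM for Spag1 in control library 2 and 9.47 CPM for Spag6 in tTA::miR132 library 1. Because tissue RNA was pooled, fewer cells of a type and less RNA per cell cannot be told apart.

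**Figure D2:**
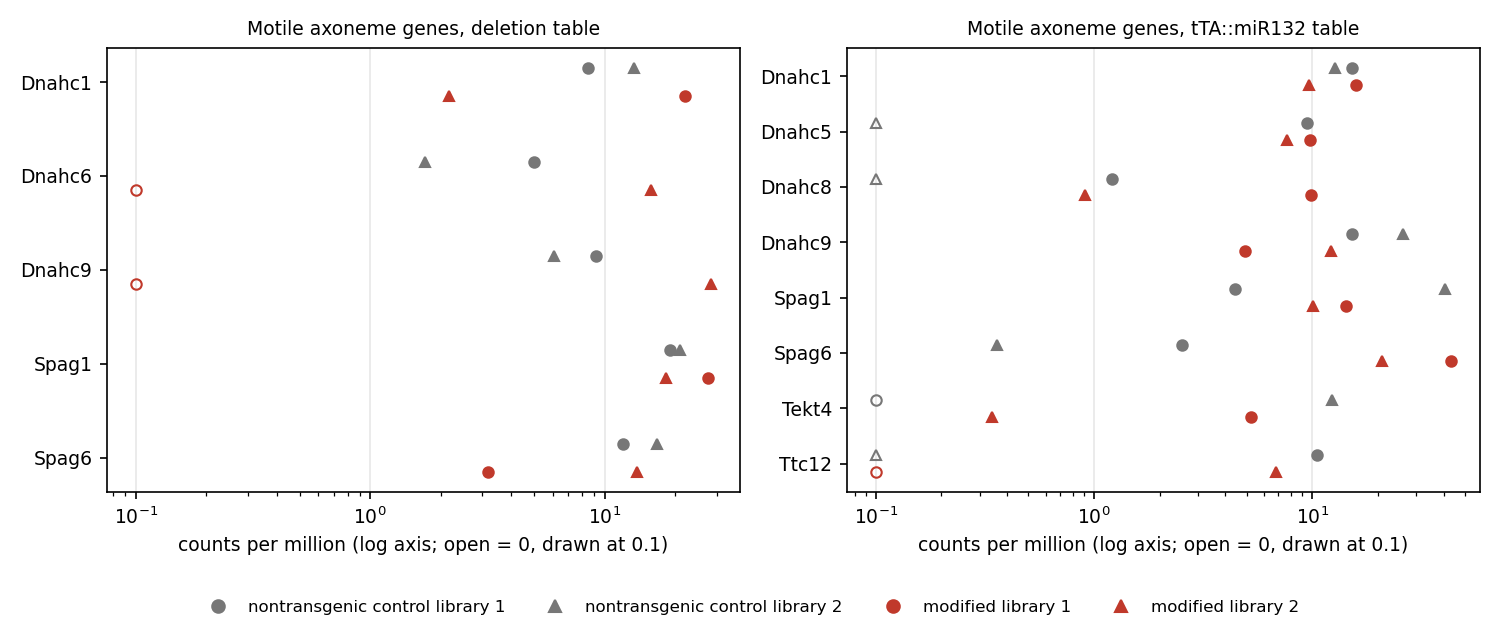
Level in CPM (log axis) of the motile axoneme genes in the deletion table (left, 5 genes) and the tTA::miR132 table (right, 8 genes), with colours and symbols for group and library as given in the legend and counts of 0 drawn as open symbols at 0.1. In the right panel both tTA::miR132 libraries of Spag6, at 43.2 and 20.9 CPM, lie above both controls, at 2.53 and 0.361 CPM.

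None of the 5 motile axoneme genes had separate groups in the deletion, beside 32.3% of all genes, a difference that 5 genes are too few to read. Dnahc9, a heavy chain of the outer dynein arm, was at 9.22 and 6.10 CPM in controls, 0 in deletion library 1 and 28.4 CPM in library 2. Dnahc6, of the inner arm, had the same layout, with 4.98 and 1.71 CPM in controls, 0 and 15.8 CPM in the deletion. Dnahc1, also an inner arm chain, had the reverse, with 8.48 and 13.3 CPM in controls, 22.1 CPM in library 1 and 2.16 CPM in library 2. Spag6, a protein of the central pair, was at 11.98 and 16.7 CPM in controls and 3.19 and 13.7 CPM in the deletion, and Spag1, which helps assemble dynein arms in the cytoplasm, was at 18.2 to 27.5 CPM in all 4 libraries. The summed level of the 5 was 53.6 and 58.8 CPM in controls and 52.8 and 78.3 CPM in the deletion.

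Markers of the cells that carry motile cilia were read beside these genes. Of 7 ependymal markers, 2 were listed in the deletion table. Foxj1, the regulator of motile ciliogenesis, was at 7.85 and 12.3 CPM in controls and 37.4 and 9.17 CPM in the deletion, and Ccdc153 was at 15.4 and 2.20 CPM and then 0 and 12.3 CPM. Choroid plexus markers, from the epithelium that makes cerebrospinal fluid and whose cells also bear cilia, had a fold change below 0 in the deletion for all 13 of the 15 that were listed. Their sum was 5584 and 6564 CPM in deletion controls and 966 and 2596 CPM in the deletion, 11 of the 13 having both deletion libraries below both controls, and 8 were at 0 in deletion library 1. These 11 stand beside 18.0% of all genes. By edgeR 5 of the 13 had an unadjusted p under 0.05, beside 0.839% of all genes, and none was called. The tests were divided on Ttr, which limma-voom called (adjusted p = 7.73e-05) and DESeq2 did not (adjusted p = 0.495). Ttr, the defining marker, was at 4351 and 4779 CPM in controls and 496 and 1682 CPM in the deletion. Across the tTA::miR132 table the sum was 6593 and 5084 CPM in controls and 5083 and 3766 CPM in tTA::miR132, with Ttr at 5094 and 3720 CPM in controls and 4028 and 2822 CPM in tTA::miR132. Directions were mixed there, with 5 of the 13 listed above 0 and 8 below. Both tTA::miR132 libraries were above both controls for 2 of them and below for 4, beside 18.8% and 14.3% of all genes. There edgeR again called none of the 13, and limma-voom called Ttr (adjusted p = 4.89e-05) and Enpp2 (adjusted p = 0.0232), both below 0. DESeq2 called Enpp2 (adjusted p = 0.000254) but not Ttr (adjusted p = 0.732). In the tTA::miR212 table, which listed 3 of the 15 markers, the sum varied widely within each group. It was 1412, 1227 and 534 CPM in controls and 1420, 219 and 1296 CPM in tTA::miR212. The part of these markers in the members' values was not tested.

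**Figure D3:**
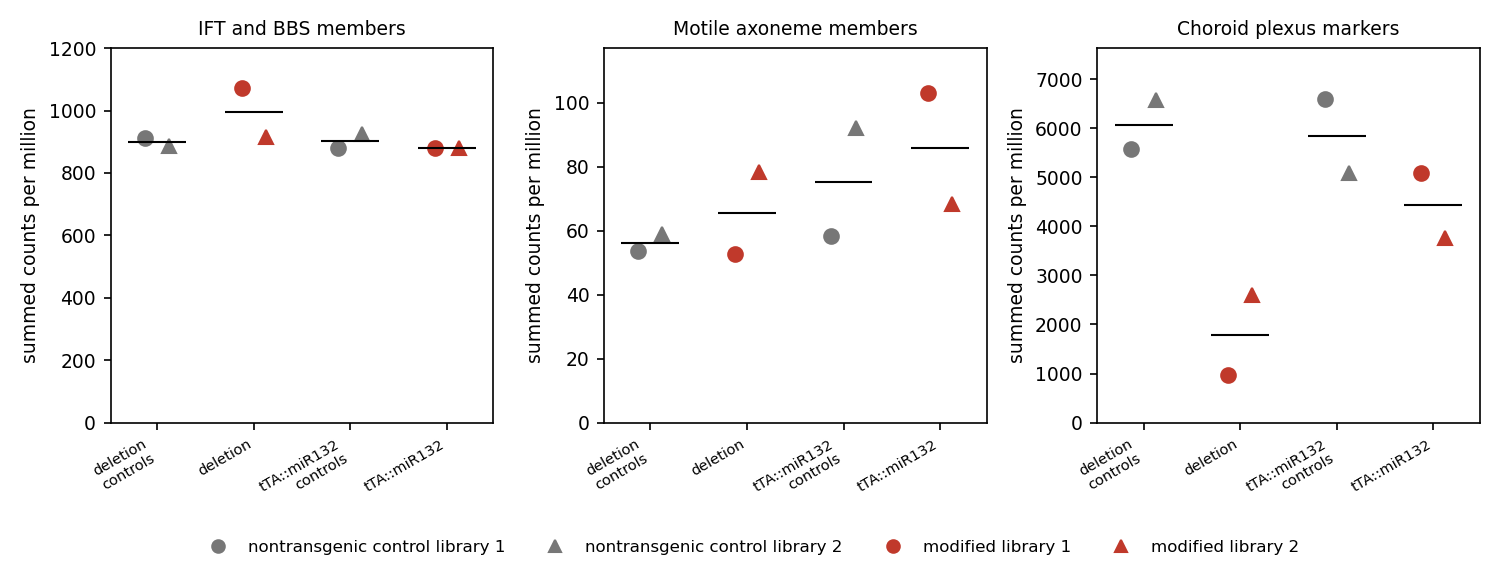
Summed level per library, in CPM, of the intraflagellar and BBS members, the motile axoneme members and the choroid plexus markers, each axis starting at 0, with a bar at the mean of 2 libraries. The intraflagellar and BBS sum lies between 879 and 1072 CPM in all 8 libraries of the deletion and tTA::miR132 tables. The choroid plexus sum is 966 and 2596 CPM in the deletion and at least 3766 CPM in the rest of these libraries.

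In tTA::miR132 no member was called either, nor any gene (0 of 10734, 0.0%). At an unadjusted p under 0.05 there were 2 members, Spag6 and Spag7, beside 303 genes (2.82%). DESeq2 called 1 member, Spag6, and 39 genes (0.363%), and limma-voom 0 members and 3 genes (0.0279%). Both libraries were above both controls for 9 of 57 members and below for 9, where the shares of all genes tested were 18.8% and 14.3%. The log2 fold change was above 0 for 31 members and below for 26, beside 49.9% of all genes above, and its median was 0.02 for members. Without control library 2, 20 members lay above and 18 below the remaining control, beside 33.7% and 32.0% of all genes. The authors' deposited table has a q under 0.05 for 28 of the 57 (49.1%) and for 53.1% of all its genes.

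Spag6 had the largest fold change of any member by edgeR with all libraries, and the counts behind it were 25 and 3 in controls and 638 and 183 in tTA::miR132. As levels these were 2.53 and 0.361 CPM, then 43.2 and 20.9 CPM, so that both tTA::miR132 libraries were above both controls. The log2 fold change was 4.43 (SE 1.22, unadjusted p = 0.00362), and the adjusted p was 0.997 by edgeR's quasi-likelihood test, 0.00271 by DESeq2 and 0.914 by limma-voom. Without control library 1, the one with 25 counts, edgeR gave 6.36 with an adjusted p of 0.0436. The gene encodes a central pair protein of motile cilia. Its entry, NM_015773 on chromosome 16 from 16753110 to 16829456 (mm9, minus strand), is a near copy of a gene on another chromosome, so how reads were divided between the copies is uncertain.

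Spag6 stood at 11.98 and 16.7 CPM in the nontransgenic controls of the deletion, above the nontransgenic controls of tTA::miR132, although these tables were normalized apart and no test was made across them. The tTA::miR132 value of library 2, 20.9 CPM, was near those controls. Of 20 further motile cilium genes listed in this table, from lists of textbook components, 10 had a fold change above 0 and 10 below. Both libraries were above both controls for 2 of the 20 and below for 3, beside 18.8% and 14.3% of all genes. These 5 are named after their values were seen. Lrrc48, a part of the axoneme's regulatory complex, was at 6.26 and 7.23 CPM in controls and 21.3 and 18.7 CPM in tTA::miR132 (log2 fold change 1.52, adjusted p = 0.997, edgeR), and Wdr16 was at 4.04 and 2.65 CPM, then 10.4 and 5.13 CPM. Ak7, an adenylate kinase, was at 6.97 and 10.6 CPM in controls and 2.17 and 4.45 CPM in tTA::miR132, and Rfx3 at 77.1 and 99.4 CPM, then 73.1 and 63.1 CPM. Foxj1 was at 23.2 and 17.6 CPM in controls and lower in both tTA::miR132 libraries, 8.60 and 8.32 CPM, with a log2 fold change of -1.31 and an adjusted p of 0.997 (edgeR). Tmem212 and Ccdc153, the other ependymal markers listed, overlapped, at 0 and 22.6 CPM against 4.26 and 2.39 CPM, and at 14.2 and 0.723 CPM against 10.1 and 17.2 CPM.

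The remaining motile axoneme genes of this table had mixed directions. Dnahc9 was at 15.2 and 26.1 CPM in controls and 4.94 and 12.2 CPM in tTA::miR132, lower in both libraries (log2 fold change -1.32, SE 1.05, adjusted p = 0.997, edgeR). It was opposite in direction to Spag6. Spag1 was at 4.44 and 40.5 CPM in controls and 14.2 and 10.0 CPM in tTA::miR132. Dnahc1 was steadier, with 15.2 and 12.8 CPM in controls and 15.9 and 9.69 CPM in tTA::miR132. The motile axoneme genes that the deletion table does not list each had a library at 0. Dnahc5, an outer arm chain, was at 9.49 and 0 CPM in controls and 9.75 and 7.64 CPM in tTA::miR132, and Dnahc8 was at 1.21 and 0, then 9.82 and 0.912 CPM. Tekt4, a filament protein inside the doublet microtubules, was at 0 and 12.3 CPM in controls and 5.21 and 0.342 CPM in tTA::miR132, and Ttc12, a dynein arm assembly factor, was at 10.5 and 0, then 0 and 6.84 CPM. Their groups overlapped.

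The summed intraflagellar and BBS level was nearly the same in all 4 libraries of this table, with 879 and 924 CPM in controls and 880 and 881 CPM in tTA::miR132. Of the 22 listed, 12 had a fold change above 0 and 10 below, and the median log2 fold change was 0.01. The groups were apart upward for 4 and downward for 4, beside 18.8% and 14.3% of all genes. The authors' deposited table has a q under 0.05 for 15 of them.

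Among the IFT-B members, Ift20 alone was higher in both tTA::miR132 libraries, at 56.9 and 53.8 CPM in controls and 100.3 and 58.4 CPM in tTA::miR132. Traf3ip1, an IFT-B subunit outside the symbol rule, was higher in both too and is given further on. Ift74 and Ttc30b were lower in both, Ift74 at 38.5 and 38.9 CPM against 25.7 and 37.8 CPM and Ttc30b at 37.6 and 51.6 CPM against 18.0 and 31.0 CPM. These are margins of a few CPM in the nearer library. Ift88 was at 53.2 and 19.3 CPM in controls, but 0 in tTA::miR132 library 1, the deepest library of the table, and 36.1 CPM in library 2. A count of 0 there allows up to 0.203 CPM, and of 2184 genes at 20 to 40 CPM in the other libraries, 5 were at 0 in it (0.229%). Ift88 was thus higher in both deletion libraries and, in tTA::miR132, at 0 in library 1 and between the controls in library 2, and these comparisons share no library.

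Ift57 and Ift81 had like levels across this table, at 64.2 to 80.4 CPM and at 38.6 to 60.9 CPM. Ift172 was at 31.5 and 59.1 CPM in controls and 48.4 CPM in each tTA::miR132 library, between them. Ift52 was at 41.4 and 43.0 CPM, then 58.3 and 28.8 CPM. Ift80 was at 47.2 and 51.6 CPM in controls and 23.1 and 55.1 CPM in tTA::miR132, Ift27 at 28.1 and 11.8 CPM and then 15.4 and 20.2 CPM. Ttc26, lower in both deletion libraries, was at 42.2 and 6.99 CPM in controls here and at 46.6 and 27.5 CPM in tTA::miR132, where the groups overlapped. The IFT-A genes Ift122 and Ttc21b overlapped too, at 6.26 to 30.4 CPM and at 6.23 to 31.8 CPM.

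The BBS genes were divided in direction. Bbs9, a BBSome scaffold, was at 7.07 and 8.55 CPM in controls and 18.4 and 17.6 CPM in tTA::miR132, with close replicates and a log2 fold change of 1.16 (SE 1.13, adjusted p = 0.997, edgeR). Bbs10, of the chaperonin that assembles the BBSome, was at 6.97 and 5.90 CPM, then 14.1 and 9.35 CPM. Ttc8 was at 51.1 and 59.5 CPM in controls and 78.3 and 62.6 CPM in tTA::miR132. These 3 were higher in both libraries, whereas Bbs1, the subunit that the recruiting GTPase Arl6 binds, was lower in both, at 43.0 and 67.8 CPM against 37.8 and 24.5 CPM. Bbs2 was lower as well, at 57.2 and 44.9 CPM against 6.57 and 38.9 CPM, its libraries differing by more than the group means of 51.1 and 22.7 CPM. Bbs4, Bbs5, Bbs7 and Bbs12 overlapped.

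**Figure D4:**
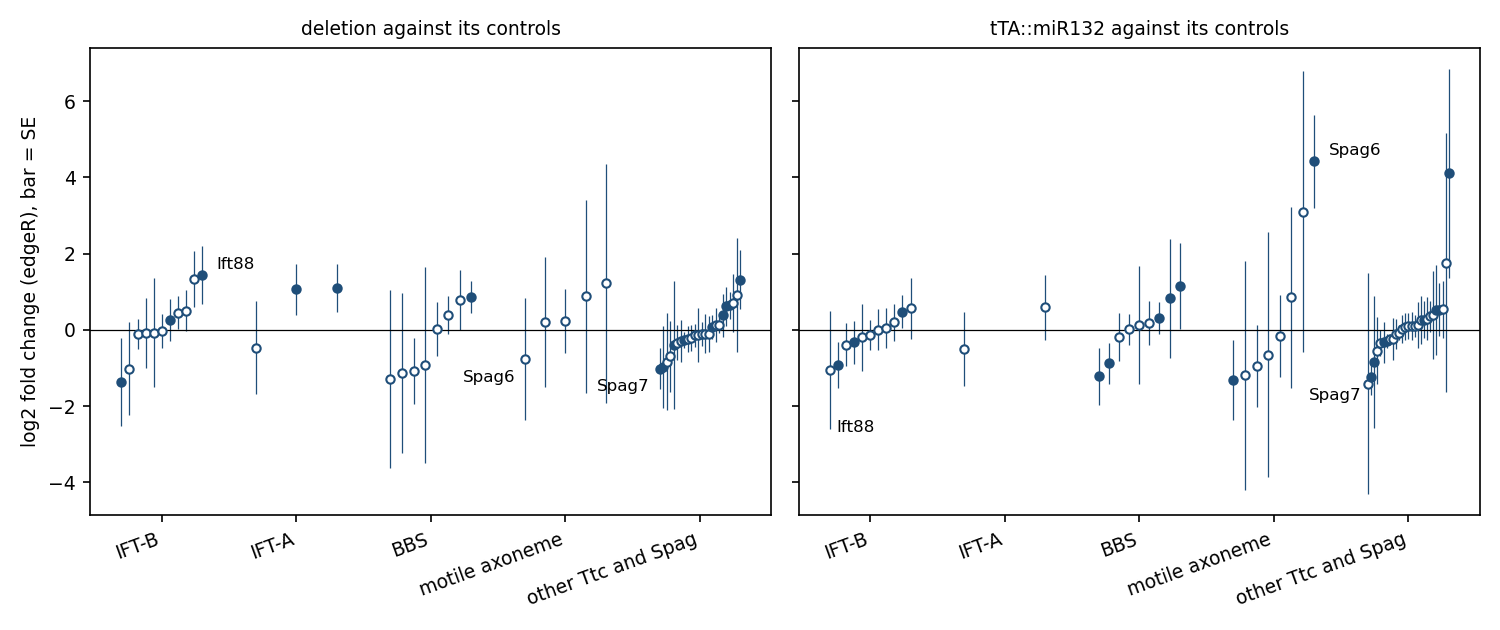
Log2 fold change by edgeR for each member of the deletion (left) and tTA::miR132 (right) tables, grouped by role, with bars for the standard error and filled points where the libraries of the groups do not overlap. Spag6 stands at 4.43 in tTA::miR132 and at -0.76 in the deletion, and Spag7 is below 0 in both, at -1.01 and -1.24.

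The 27 Ttc and Spag genes of other or unsettled function were listed in part for each table. In the deletion 5 of 24 had both libraries above the controls and 4 both below, beside 14.3% and 18.0% of all genes. In tTA::miR132 4 of 27 were above and 4 below, beside 18.8% and 14.3%. Spag7, whose function is little known, was below its controls in each of the 4 modified libraries. It was at 81.0 and 47.1 CPM in controls and 32.3 and 30.0 CPM in the deletion (log2 fold change -1.01, SE 0.53, adjusted p = 0.999, edgeR). In tTA::miR132 it was at 33.8 and 45.3 CPM against 65.8 and 114.1 CPM in controls (log2 fold change -1.24, SE 0.46, unadjusted p = 0.0200, adjusted p = 0.997, edgeR). Its direction was thus the same where the microRNA was removed and where it was added, against separate controls. It was 1 of 49 members listed in both tables with that pattern (2.04%), beside 2.48% of 9991 genes.

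Ttc9b, a small repeat protein, was at 84.0 and 94.7 CPM in deletion controls and 163.2 and 109.3 CPM in the deletion, both above. Ttc28, a large protein of the mitotic midbody, was at 9.97 and 33.8 CPM in controls and 63.8 and 43.2 CPM in the deletion (log2 fold change 1.32, SE 0.76). Neither had groups apart in tTA::miR132, where Ttc9b was at 63.0 to 114.3 CPM and Ttc28 at 25.5 to 52.5 CPM. Ttc3, a ubiquitin ligase, was the member with the highest level per kilobase of exon in controls, 129 CPM in the deletion table. It was at 2174 and 1736 CPM in controls and 2337 and 1845 CPM in the deletion, and at 1809 and 2287 CPM in controls and 1626 and 1929 CPM in tTA::miR132, overlapping in both. Ttc14, which carries an 8mer seed site, was at 449.8 and 424.0 CPM in controls and at 276.2 and 522.9 CPM in the deletion. In tTA::miR132 it was lower in both libraries, at 412.7 and 521.7 CPM against 536.8 and 573.3 CPM (log2 fold change -0.29, SE 0.18, adjusted p = 0.997, edgeR).

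Ttc37, of the Ski complex that escorts messages to the exosome, is named after its values were seen. It was at 1.21 and 0 CPM in controls and 14.9 and 6.73 CPM in tTA::miR132, with 12 and 0 counts against 220 and 59. The unadjusted p was 0.161 and the adjusted p 0.997 (edgeR). Its controls, like those of Spag6, held few counts.

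Of the 9 members with a seed match, in the deletion 3 had a fold change above 0 and 6 below, with a median of -0.09 on the log2 scale, beside 21 and 21 of the 42 members without a match. In tTA::miR132 5 were above 0 and 4 below, with a median of 0.10, beside 26 and 22 of the 48 without. In tTA::miR212 both of the 2 listed were below 0, beside 3 above and 5 below of 8 without. Groups were apart downward for 1 member with a match in the deletion and 2 in tTA::miR132, and upward for 0 in each. Of the 8mer genes, Ift81 was at -0.03 in the deletion and 0.20 in tTA::miR132 and Ttc14 at -0.12 and -0.29. Ttc26 was at -1.37 and 0.57 and Ttc7 at 0.92 and -0.85, opposite in sign to each other in both comparisons. None was called.

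The tTA::miR212 libraries were far more alike than the others, with a biological coefficient of variation of 8.58% against 74.2% for the deletion and 60.7% for tTA::miR132. None of the 10 members was called and none had an unadjusted p under 0.05, beside 0 of 4618 genes (0.0%) and 260 genes (5.63%). The groups were apart for 1 of the 10, downward, where 4.96% of all genes were lower and 6.47% higher. The log2 fold change was above 0 for 3 members and below for 7, beside 51.0% of all genes above, with a median of -0.05. The authors' deposited table has a q under 0.05 for none of the 10 and for 4 genes (0.0866%), and DESeq2 and limma-voom called no gene. No motile axoneme or IFT-A gene was listed, and no ependymal marker.

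**Figure D5:**
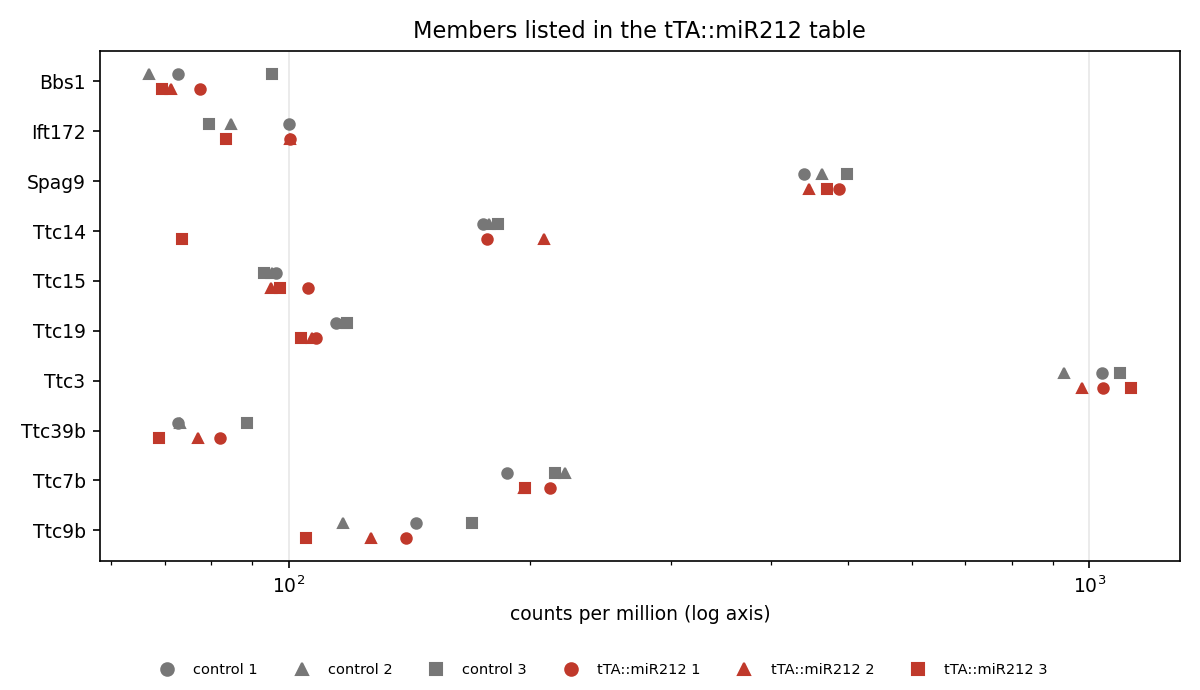
Level in CPM (log axis) of the 10 members listed for tTA::miR212, grey for the 3 controls and red for the 3 tTA::miR212 libraries. Ttc19 is the only member whose groups are apart, and Ttc14 in tTA::miR212 library 3, at 73.6 CPM, lies far from the other 5 libraries, at 175 to 208 CPM.

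Ift172 and Bbs1 stand for the transport genes in this table. Ift172 was at 100.04, 84.7 and 79.5 CPM in controls and 100.4, 100.3 and 83.6 CPM in tTA::miR212, a log2 fold change of 0.09 (SE 0.13). Bbs1 was at 72.8, 67.0 and 95.4 CPM in controls and 77.4, 71.2 and 69.6 CPM in tTA::miR212, a log2 fold change of -0.12 (SE 0.15). The groups overlapped for both, and the adjusted p was 0.968 and 0.949 (edgeR). With these errors the table could have shown far smaller differences for Ift172 than the deletion table, where its SE was 1.21.

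Ttc19, a mitochondrial protein needed for respiratory complex III, was at 114.7, 117.0 and 118.2 CPM in controls and 108.1, 106.8 and 103.7 CPM in tTA::miR212. All 3 were below all controls by a small step, with a log2 fold change of -0.15 (SE 0.10) and an adjusted p of 0.919 (edgeR). Ttc9b was at 143.9, 117.0 and 169.7 CPM in controls and 140.3, 126.9 and 105.0 CPM in tTA::miR212, overlapping, with a log2 fold change of -0.23 (SE 0.14). It had the smallest adjusted p of the 10, 0.913 (edgeR). Ttc3 was at 930 to 1092 CPM in controls and 980 to 1126 CPM in tTA::miR212, and Spag9, a scaffold for JNK signalling and motor proteins, was at 440 to 498 CPM and 447 to 487 CPM.

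Ttc14 in tTA::miR212 library 3 was the single departing value among these members. It was at 175, 178 and 183 CPM in controls and at 177, 208 and 73.6 CPM in tTA::miR212. Its 6 transcript entries, whose reads overlap, held 56 to 110 counts in that library and 99 to 322 over the other 5. The whole table lists 44 transcripts of the 10 members among 11706, and none was called or had an unadjusted p under 0.05 when all were tested.

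Genes of cilia outside the symbol rule were read from lists of textbook components. Of 46 further primary cilium genes, 33 were listed for the deletion, with 13 above 0 and 20 below, 0 called and a median log2 fold change of -0.13. Arl3, the GTPase that releases lipidated cargo inside the cilium, was at 52.3 and 47.1 CPM in controls and 109.3 and 82.8 CPM in the deletion (log2 fold change 0.98, unadjusted p = 0.0476, adjusted p = 0.999, edgeR). Both deletion libraries were above both controls. In tTA::miR132, 35 were listed, 18 above 0 and 17 below. Dync2li1, a light intermediate chain of the retrograde motor, was at 28.4 and 78.8 CPM in controls and 16.3 and 28.4 CPM in tTA::miR132, and Traf3ip1, an IFT-B subunit under an older name, was at 29.5 and 5.42 CPM, then 35.8 and 47.3 CPM. In tTA::miR212, 12 were listed, 4 above 0 and 8 below. Kif3b, a motor subunit for IFT-B, was lower in all 3 libraries, at 171.4, 170.9 and 170.4 CPM against 163.3, 147.6 and 159.2 CPM (log2 fold change -0.14, adjusted p = 0.919, edgeR), while its partner Kif3a overlapped at 224 to 286 CPM.

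Of 48 further motile cilium genes, 16 were listed for the deletion, 20 for tTA::miR132 and 1 for tTA::miR212, and none was called. In the deletion 9 were above 0 and 7 below, and in tTA::miR132 10 and 10. Enkur, a protein inside the doublet microtubules, was at 14.4 and 6.59 CPM in deletion controls and at 0 in both deletion libraries. A count of 0 allows up to 0.319 and 0.309 CPM in those libraries. Rfx1, of the Regulatory Factor X family, was at 13.6 and 17.2 CPM in controls and 50.4 and 18.6 CPM in the deletion. Rfx4 was at 10.0 and 76.1 CPM in controls and 11.8 and 16.8 CPM in tTA::miR132, the high value being that of control library 2. Dnalc1, a dynein light chain, was lower in both deletion libraries, at 90.6 and 118.5 CPM in controls and 7.97 and 76.6 CPM in the deletion. It was at 85.5 and 143.0 CPM, then 68.6 and 89.1 CPM in tTA::miR132, where the groups overlapped. In all 6 libraries of the tTA::miR212 table it was at 178.6 to 192.9 CPM.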

How the data were processed

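Hippocampal polyadenylated RNA was sequenced on a Genome Analyzer II and aligned to mm9 with Bowtie 0.12.7, per the labels' protocols and the submitters' processing notes, which also name Cufflinks 1.2, not used here. Neither the counting tool nor the annotation is named in these sources. The authors deposited whole-number counts per gene or transcript, with p-values and q-values of their own comparison, per the file headers. The 14 normalized columns were not used, and 1 repeated header line was dropped. The labels list 18 samples in 6 groups. The tables hold 14 libraries, and the others are not analysed here.

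Each table was fitted alone over all its genes in R 4.3.3 with edgeR 4.0.16 (TMM, filterByExpr, robust quasi-likelihood test, Benjamini-Hochberg, threshold 0.05). For tTA::miR212 the transcript with the highest mean count stood for a gene. CPM were computed from library totals without TMM. P-values measure the spread between libraries, said to be pools. Alternatives were DESeq2 1.42.0, limma-voom (limma 3.58.1), other scaling, no filter, the replicate block and leaving out each library. The fit was also run on simulated data with planted changes, and no result given here rests on that run. Starts in the RefSeq tables, which count from 0, were shifted by 1.

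Members and lists were chosen with earlier results of these data known. Named were the transport, BBS and axoneme members, of the other members the 3 with the smallest p and the 2 with the highest mean per comparison, and 2 related genes per list and comparison, of which 1 is not reported here. Markers covered ependyma, choroid plexus, excitatory neurons (7 of 7 listed in each table) and astrocytes (5 of 5).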

Additional observations from a re-analysis of the deposited data

How the results depend on the processing

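The number of members called stayed at 0 in every comparison under other scaling, without the filter, with limma-voom and with the replicate block, and for tTA::miR212 also with all transcripts tested. The exceptions were these. DESeq2 called 1 member in tTA::miR132, Spag6. Leaving out each library in turn gave 0 to 23 members for the deletion, 0 to 1 for tTA::miR132 and 0 to 0 for tTA::miR212. The 23 (9 higher, 14 lower) arose without deletion library 2, when library 1 stood alone, assumed to vary like the controls, and 4527 genes were called, and without library 1 the count was 0. In tTA::miR132 the single calls were Spag6 without control library 1 and Ift88, lower, without tTA::miR132 library 2, leaving only the library where Ift88 was at 0. With the replicate block the count was 0 in each comparison. The library numbers showed no sign of pairing. Deviations of same-numbered libraries correlated at 0.0147 in the deletion, 0.0133 in tTA::miR132 and -0.0787 to 0.0207 in tTA::miR212. With 2 libraries per group both numbers give the same value, so these correlations cannot show that no pairing exists. Leaving out deletion library 1 or tTA::miR132 control library 2, chosen after seeing the data, raised the members whose groups did not overlap from 15 to 32 and from 18 to 38, as 1 library then stands for a group. Fold changes were followed for 34 pairs of a gene and a comparison, those of members whose groups do not overlap, a choice that fixes their sign when a library is left out. Of their alternative values 332 stayed on the same side of the threshold and 10 newly passed it. Over all members, the log2 fold change changed sign when some library was left out for 23 of 51 in the deletion, 34 of 57 in tTA::miR132 and 5 of 10 in tTA::miR212, all of them members whose groups overlap, and under another setting for 4, 5 and 1. The RefSeq tables have 2 libraries per group and a coefficient of variation of 60.7% or more, and no detectable size of difference was computed.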
